A study of Homo sapiens with 33 samples.

Results

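Metallothioneins are small, cysteine-rich proteins that bind zinc, copper and cadmium. They are induced through the zinc-sensing transcription factor MTF1, which recognises short metal response elements in their promoters, and by glucocorticoids and oxidative stress. Their thiol groups can also bind platinum, and they have long been studied in relation to cisplatin response. The genes described here are MT1A, MT1E, MT1F, MT1G, MT1H, MT1M, MT1X and MT2A, taken by symbol from the gene tables, 8 of 29744 rows. They were chosen by symbol and not by a measured value.

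The libraries came from 11 high-grade serous ovarian cancer cell lines, each with 3 replicates, 33 libraries in all. Poly(A) RNA was sequenced and quantified per gene as estimated counts and as TPM, a level scaled to transcript length and to the library. The study's text treats OVCAR3, OVCAR4, PEA1 and PEO1 as platinum sensitive. It treats the other 7 lines as resistant. OVCAR3 ResA, OVCAR3 ResB, OVCAR4 ResA and OVCAR4 ResB were each selected from the parental line by repeated short exposures to cisplatin, and were not kept in the drug. Each is a single selected population, so ResA and ResB share their parental control. PEA1 and PEA2 are commercial lines of a single patient, as are PEO1, PEO4 and PEO6. PEO4 and PEO6 are therefore both compared with PEO1. The medium of the OVCAR3 lines had a higher serum share than the others, and the OVCAR3 and OVCAR4 media held insulin, so family and medium cannot be told apart.

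Library totals ran from 18058985 to 43394009 counts. All 8 epithelial markers examined reached 1 TPM in at least 1 line, with summed line means between 428 and 7065 TPM. WT1 did so in 9 of the 11 lines, MUC16 and KRT19 in 10, and the others in all. Of the markers examined for other cell types, COL1A2 and DCN of fibroblasts, CD3E of T cells and VWF of endothelium stayed below 1 TPM in every line. Other genes of those lists did not: COL1A1 reached 88.4 TPM and PDGFRB 6.55 TPM in PEA1, LUM 17.7 TPM in OVCAR4 ResA, CD68 49.9 TPM and CDH5 7.02 TPM in PEA2, and PECAM1 6.76 TPM in OVCAR3 ResB. The leukocyte markers PTPRC and CD14 reached 3.3 TPM in PEA2 and 3.02 TPM in PEO1. Line means summed over the whole lists reached 95 TPM for 5 fibroblast genes, 56.1 TPM for 4 leukocyte genes and 7.37 TPM for 3 endothelial genes. In bulk RNA, fewer cells that carry a transcript and less transcript per cell cannot be told apart.

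The 8 genes lie in 1 cluster on chromosome 16, at chr16:56608584-56684196 of GRCh38.p14, which spans 75.6 kb. In the order MT2A, MT1E, MT1M, MT1A, MT1F, MT1G, MT1H and MT1X they follow each other, with MT1B and several pseudogenes between them. MT2A occupies chr16:56608584-56609497 and MT1X, at the other end, chr16:56682470-56684196. MT1M is at chr16:56632659-56633981 and MT1A, the next member, at chr16:56638666-56640087. The copies are alike in sequence. In the 15 pairs whose coding sequences had the same length, 186 bases, identity ran from 88.7% to 94.6%, the highest being MT1A against MT1E with 10 differences. Of the 31-base words of each main transcript, the share also present in another metallothionein gene was 13.9% for MT1F, 15.3% for MT1E, 16.9% for MT1A, 23% for MT1X, 24.8% for MT2A, 31.1% for MT1G, 39.7% for MT1M and 41.4% for MT1H, in the GENCODE transcripts of GRCh37. Reads in those stretches can be assigned to either copy, so values of MT1M, MT1H and MT1G are the least certain. The sum over all 8 genes depends less on how reads were divided among them, though TPM uses each gene's own length and reads can also be shared with MT1JP, MT1HL1 or MT2P1, which are outside the sum. Line means were at most 0.218 TPM for MT1JP and 0 for MT1HL1. The pseudogene MT1L, also outside the sum, reached a line mean of 564 TPM in PEA2.

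Promoters of 3 of the 8 genes were held in the RefSeq table used here. All 3 are shown. MT2A and MT1X were expressed in all 33 libraries, and MT1H was at 0 in every library but 1. Each sequence runs over the 250 bases before the start site on the forward strand. Capitals mark the core of the metal response element, searched as TGCACNC and TGCGCNC on both strands. The windows are chr16:56608334-56608583 for MT2A, chr16:56682220-56682469 for MT1X and chr16:56669564-56669813 for MT1H, all in GRCh38.p14.
MT2A: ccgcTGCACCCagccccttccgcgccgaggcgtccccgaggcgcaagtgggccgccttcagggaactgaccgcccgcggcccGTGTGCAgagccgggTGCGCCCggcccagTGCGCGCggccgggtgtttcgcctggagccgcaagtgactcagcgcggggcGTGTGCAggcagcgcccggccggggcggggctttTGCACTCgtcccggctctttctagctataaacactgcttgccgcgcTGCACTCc
MT1X: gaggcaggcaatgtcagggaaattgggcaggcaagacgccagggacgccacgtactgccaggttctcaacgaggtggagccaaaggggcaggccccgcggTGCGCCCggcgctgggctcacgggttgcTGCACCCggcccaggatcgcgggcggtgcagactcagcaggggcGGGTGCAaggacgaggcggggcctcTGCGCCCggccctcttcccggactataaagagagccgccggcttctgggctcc
MT1H: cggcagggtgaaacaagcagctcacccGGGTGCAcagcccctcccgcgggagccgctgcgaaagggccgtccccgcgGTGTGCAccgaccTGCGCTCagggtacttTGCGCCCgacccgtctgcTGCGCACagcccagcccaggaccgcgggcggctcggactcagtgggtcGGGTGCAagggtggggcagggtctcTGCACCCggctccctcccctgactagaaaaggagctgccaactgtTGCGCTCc

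The MT2A window held 7 matches, the MT1X window 4 and the MT1H window 8, and no match overlapped another. Of 35116 promoter windows of the same length, 24.8% held at least 1 match, 0.370% at least 4, 0.0313% at least 7 and 0.0171% at least 8. MT1H, listed at 0 in every library but 1, thus had 8 matches against 7 for MT2A, the most abundant member of most lines. A match of letters is a description of the window and says nothing about binding.

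MT2A was the most abundant member by mean TPM in 8 of the 11 lines, the others being OVCAR3 and OVCAR3 ResA, where MT1X led, and PEO6, where MT1E led. Its level was 2379.7 ± 447 TPM in PEA2, 2212 ± 833 in PEO4, 1637 ± 1017 in PEA1 and 1497 ± 348 in PEO1 (SD, n = 3). It was 724 ± 554 TPM in OVCAR4 ResB, 439.7 ± 283 in PEO6, 321 ± 247 in OVCAR3 ResB, 295 ± 245 in OVCAR4 ResA and 273 ± 135 in OVCAR4. The lowest levels were 86.7 ± 48.8 TPM in OVCAR3 ResA and 34.4 ± 11.5 TPM in OVCAR3. In this order only OVCAR4 and OVCAR3 ResA were neighbours whose libraries did not overlap. Each other neighbouring pair shared part of its range.

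MT1E was listed at 0 in all 9 libraries of the OVCAR3 family. In the other 8 lines it was the most abundant MT1 gene except in OVCAR4 ResB, where MT1F stood at 286 ± 137 TPM and MT1E at 249.5 ± 215 TPM. MT1E ran from 148 ± 45.3 TPM in OVCAR4 to 636 ± 61.6 TPM in PEO1. A count of 0 in each of the 9 libraries allows up to 3 counts in each, a limit that covers counting error only.

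MT1X had the narrowest range of line means among the 3 members detected in every library, which were MT2A, MT1X and MT1F. Its means stayed between 63.9 ± 8.72 TPM in OVCAR3 and 192 ± 79.7 TPM in OVCAR3 ResB. MT1F ranged from 14.7 ± 3.82 TPM in OVCAR3 ResA to 286 ± 137 TPM in OVCAR4 ResB.

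MT1A and MT1M were restricted to some lines. MT1A reached 71.3 ± 15.3 TPM in PEO1, 23.3 ± 5.3 in OVCAR4, 22.1 ± 2.98 in PEO6, 15.4 ± 2.84 in PEA2 and 10.1 ± 4.18 in PEO4, and had a mean below 1 TPM in the other 6 lines. It was listed at 0 in all 3 libraries of PEA1. MT1M reached 97.1 ± 46.8 TPM in PEA1, 75.4 ± 8.55 in PEO1, 35.7 ± 24.4 in PEO6, 25.1 ± 1.22 in PEA2 and 6.94 ± 1.1 in PEO4, with at most 2.11 ± 1.9 TPM elsewhere. MT1G passed 1 TPM only in PEA2, at 4.03, 1.44 and 1.97 TPM, and in PEO6, at 6.99, 1.22 and 36.9 TPM. MT1H was seen in a single library, replicate 3 of PEO6, at 4.03 TPM.

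**Figure D1:**
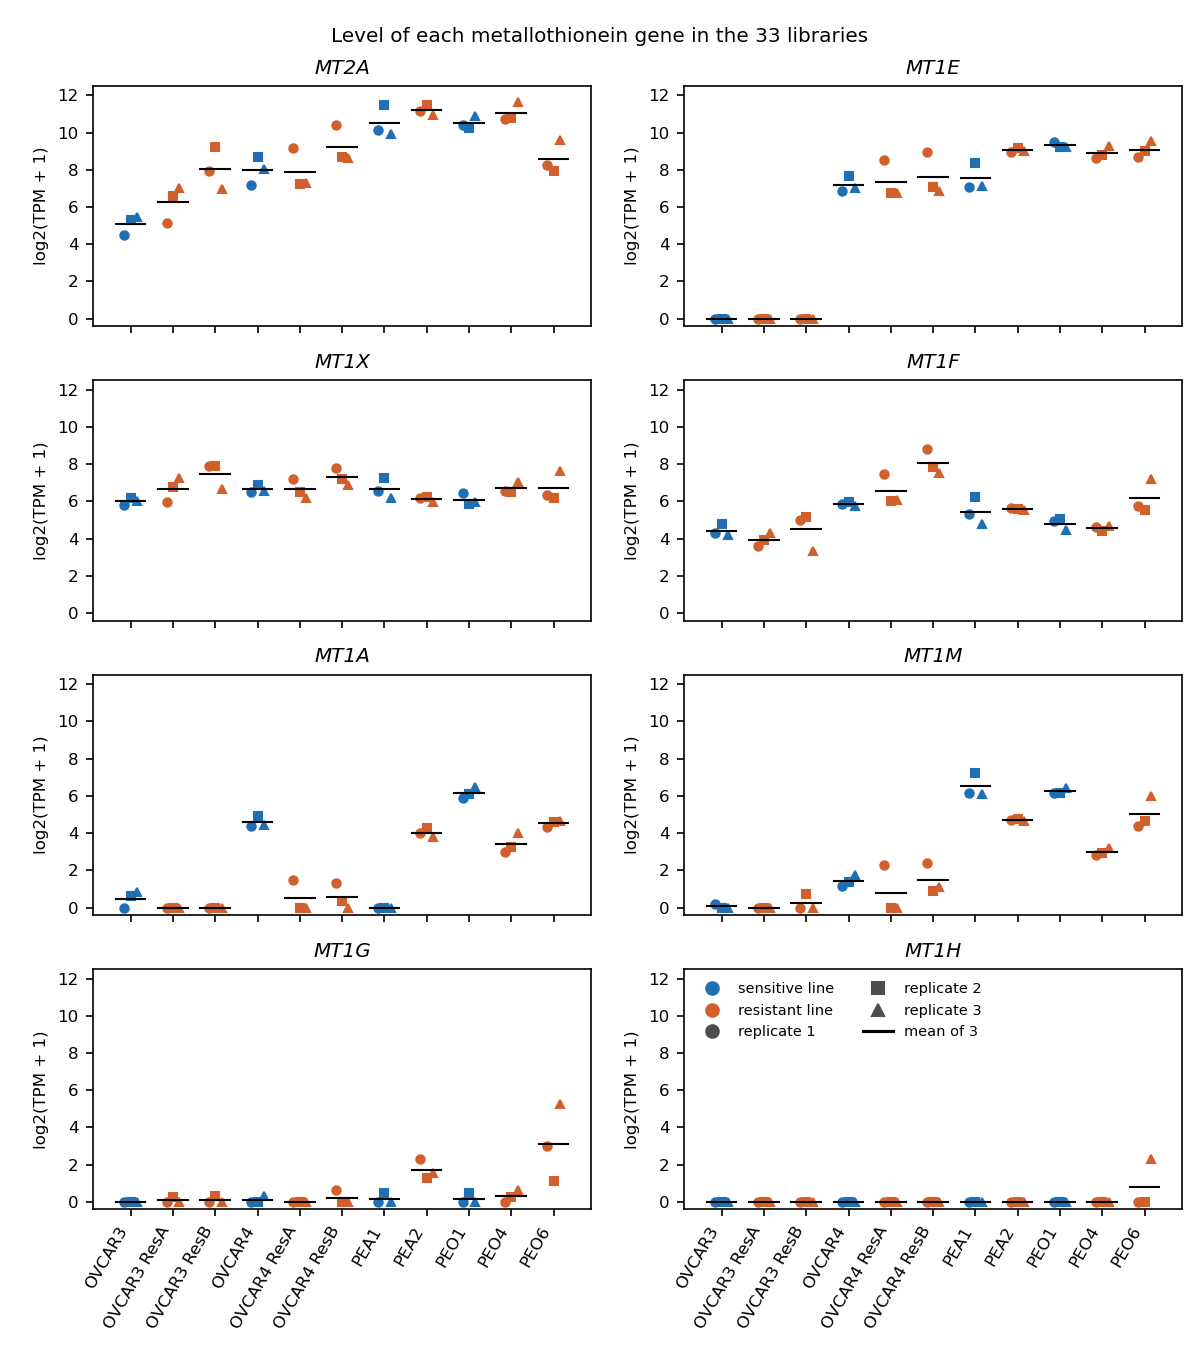
Level of each metallothionein gene as log2(TPM + 1) in the 33 libraries, by line on the horizontal axis, with 1 point per library, marker shape for the replicate, colour for the sensitive or resistant line, and a bar for the mean of 3. MT1E lies at 0 in all 9 OVCAR3-family libraries, MT1X stays within a narrow band, and MT1H rises above 0 in 1 library of PEO6.

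The summed TPM of the 8 genes was 119.6 ± 22.1 in OVCAR3, 209 ± 98.4 in OVCAR3 ResA and 539 ± 320.5 in OVCAR3 ResB (SD, n = 3). In the OVCAR4 family it was 604 ± 199 in OVCAR4, 699.9 ± 508 in ResA and 1425 ± 964 in ResB. It was 2089 ± 1243 in PEA1, 3066 ± 489 in PEA2, 2375 ± 344 in PEO1, 2842 ± 974 in PEO4 and 1271 ± 619 in PEO6. With the lines ordered by this sum, the libraries of each neighbouring pair overlapped, so no step of that order was larger than the spread of its replicates. Summed over all metallothionein rows, MT1L among them, the mean was 2177 TPM in PEA1, 3631 in PEA2, 2566 in PEO1, 3066 in PEO4 and 1289 in PEO6. It was 120.4 TPM in OVCAR3 and 1465 TPM in OVCAR4 ResB.

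**Figure D2:**
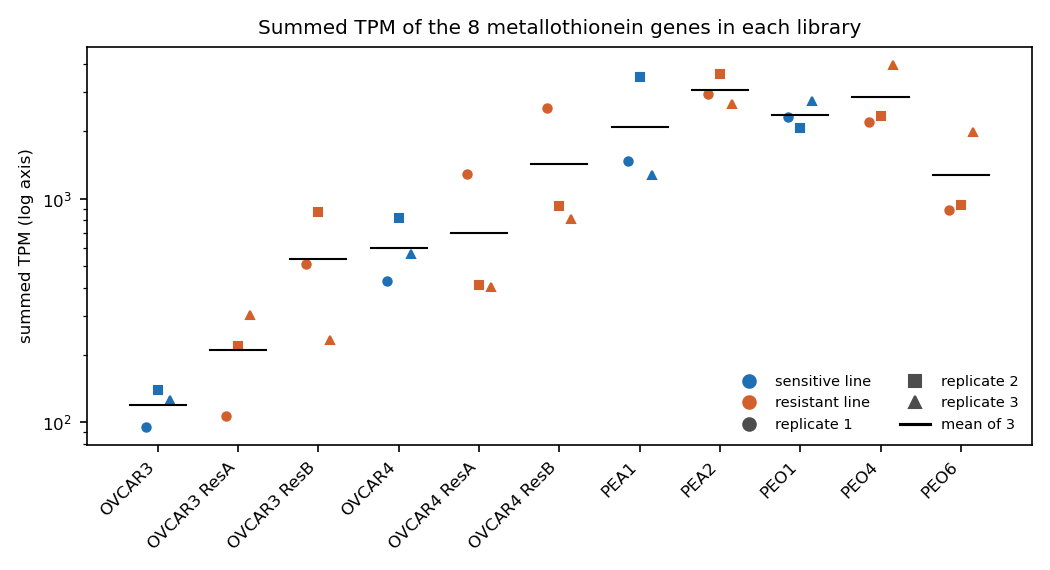
Summed TPM of the 8 metallothionein genes on a log axis, by line, with 1 point per library and a bar for the mean of 3. The OVCAR3 mean of 119.6 TPM is the lowest and the PEA2 mean of 3066 TPM the highest, while replicates of OVCAR4 ResA, OVCAR4 ResB and PEA1 spread widely.

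The make-up of the sum differed between families. MT2A gave 77.6% ± 1.97 of it in PEA1, 77.4% ± 2.35 in PEA2, 77.3% ± 2.34 in PEO4 and 62.5% ± 5.52 in PEO1, but 33.1% ± 6.13 in PEO6, where MT1E gave 46.4% ± 9.13 (SD, n = 3). In OVCAR3 MT1X was the main member with 53.8% ± 3.79, against 28.3% ± 6.04 for MT2A. MT2A rose to 39.6% ± 6.64 of the sum in OVCAR3 ResA and 56.4% ± 10.9 in OVCAR3 ResB, values that were not tested. In OVCAR4 ResB MT1F gave 21.7% ± 3.85, against 10.1% ± 2.9 in OVCAR4. Shares within a library do not depend on its total.

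**Figure D3:**
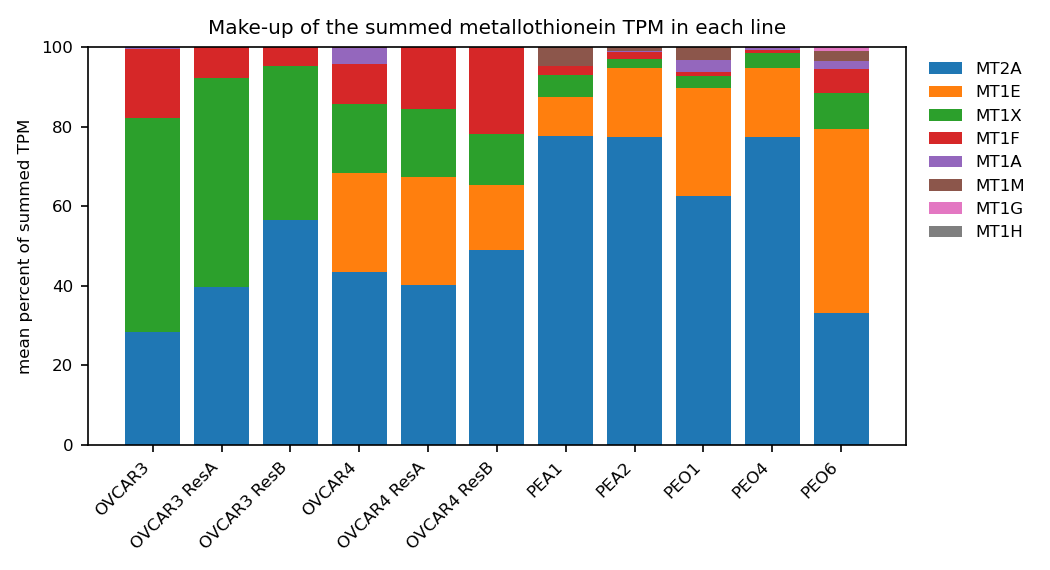
Mean percent of the summed metallothionein TPM contributed by each gene in each line (stacked bars, 3 libraries per line). MT2A fills 77.3% to 77.6% of the bar in PEA1, PEA2 and PEO4, MT1X 53.8% in OVCAR3, and MT1E 46.4% in PEO6.

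Replicates of a line differed in a shared way. Deviations of log2(summed TPM + 1) from the line mean went with those of the mitochondrial rRNA share of counts, at Pearson r = 0.832 over 33 libraries, and against those of SLC30A1, at r = -0.785. SLC30A1 encodes a zinc exporter that MTF1 also activates. These points share their libraries, so the coefficients are descriptions. The members are among the shortest genes, between the 0.499 and 1.1 percentiles of relative effective length of all expressed genes. With expressed genes divided into 10 classes by length, the shortest class held 1584 genes, 6 of them members. Its median deviation, taken without the metallothionein rows, followed the summed members at r = 0.566. The medians of the other classes went the opposite way, at r between -0.741 and -0.516. In a fit of all 33 libraries the level rose with each SD of the mitochondrial rRNA share by 0.99 ± 0.10 for MT2A (log2, SE; DESeq2, adjusted p = 4.39e-23), by 0.78 ± 0.09 for MT1E (DESeq2, adjusted p = 2.17e-15) and by 0.57 ± 0.09 for MT1X (DESeq2, adjusted p = 8.47e-09), and that of SLC30A1 fell by 0.58 ± 0.06 (DESeq2, adjusted p = 6.23e-18). Over all genes such a slope was called in 9712 of 18973, with 5183 rising and 4529 falling, so it is not particular to these genes. The same fit compared each pair with the share as a covariate, and some of its values are given below. The cause of these shared deviations was not tested. Libraries that stood out were replicate 1 of OVCAR4 ResA, with 9.23% mitochondrial rRNA against 2.02% and 2.09% in its fellows, replicate 1 of OVCAR4 ResB, with 13.1% against 2.47% and 2.39%, replicates 2 and 3 of OVCAR4, with 14.8% and 12%, and replicate 2 of PEA1, with 7.62%. Replicate 3 of PEO6 was high in metallothioneins, at 1986 TPM against 892 and 937 TPM, with a mitochondrial rRNA share of 2.65% that was the lowest of its line.

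**Figure D4:**
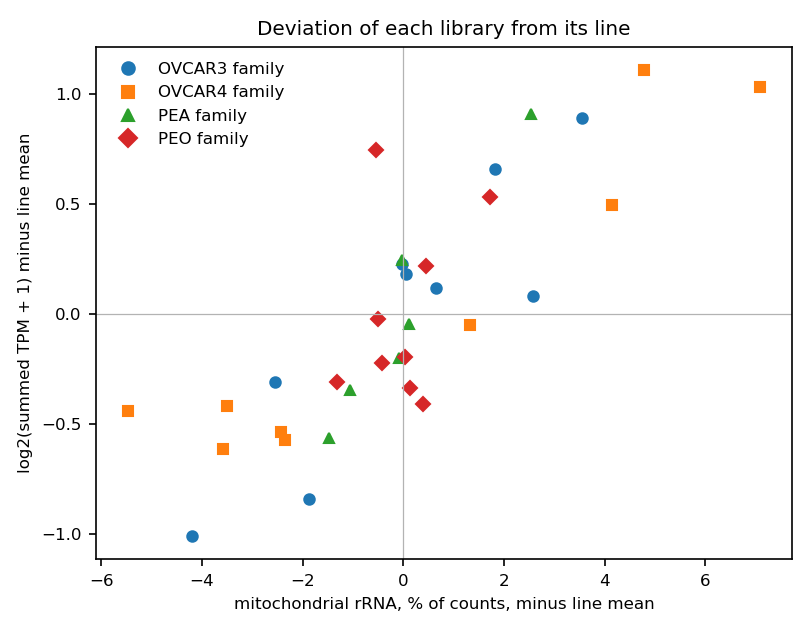
Deviation of each library's log2(summed TPM + 1) of the 8 genes from its line mean, against the deviation of its mitochondrial rRNA share of counts in percentage points, with 1 point per library and a marker per family. The points run from lower left to upper right (r = 0.832, 33 libraries), and replicate 3 of PEO6 lies at upper left, 0.746 above its line mean in metallothioneins and 0.535 percentage points below it in the share.

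The 7 resistant lines were set against their sensitive counterparts to ask which genes differ with resistance. Over the 7 pairs, 56 combinations of gene and pair were possible, and 38 had enough counts for an adjusted p. DESeq2 with the replicate number as a block called 21 of them at an adjusted p under 0.05, 13 higher and 8 lower in the resistant line. Over the same pairs 29.8% of all gene and pair combinations were called. The median log2 difference over the members tested was above 0 in 3 pairs, with 0.81 in PEA2, 1.45 in OVCAR3 ResB and 0.53 in OVCAR3 ResA, and below 0 in 4, at -0.69 in OVCAR4 ResA, -0.14 in OVCAR4 ResB, -0.30 in PEO4 and -0.23 in PEO6. Over all genes the medians lay between -0.02 and 0.02. The 18 untested combinations were those of MT1H, MT1G, MT1A, MT1M and MT1E where counts were near 0. A gene near 0 in 1 line could pass only through the line where it was high, so the calls are given beside the share of all genes called in each pair. By gene, MT2A was higher in 4 pairs and lower in 1, MT1X higher in 3, MT1F and MT1G higher in 2, MT1E higher in 1, MT1M lower in 3, and MT1A lower in 4 and higher in 1. No combination of MT1H was tested.

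**Figure D5:**
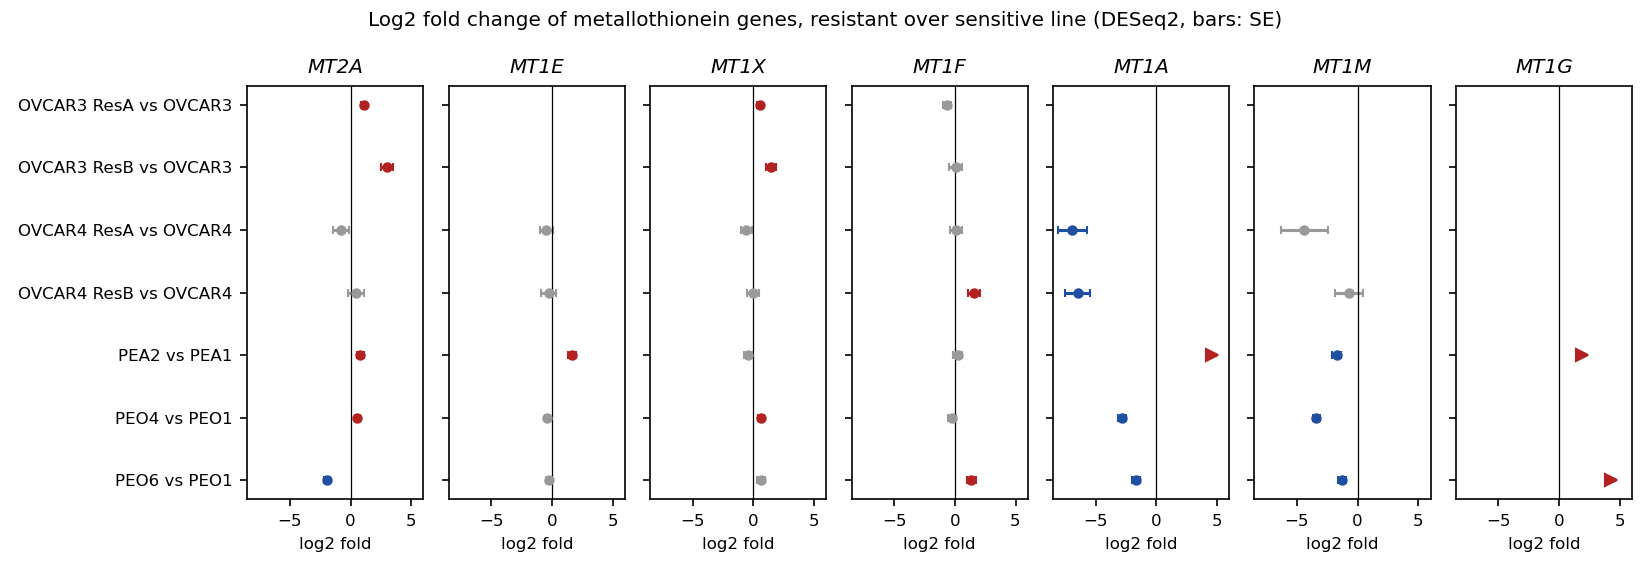
Log2 fold change of 7 metallothionein genes in the resistant over the sensitive line for the 7 pairs (DESeq2, points with SE; red higher and blue lower at an adjusted p under 0.05, grey not called; triangles are lower bounds against 3 counts per library, and combinations near 0 counts are blank). MT1A lies between -6.91 and -1.67 in 4 pairs and above 0 in PEA2, and MT2A lies at -1.92 in PEO6.

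In OVCAR3 ResA MT2A and MT1X were called higher and no member was called lower. MT2A stood at 34.1, 95.5 and 130.5 TPM, against 21.4, 38.7 and 43.1 TPM in OVCAR3, so the libraries overlapped between lines while each replicate lay above its same-numbered partner. The log2 difference was 1.07 ± 0.21 (SE; DESeq2, adjusted p = 3.18e-06). MT1X stood at 61.6, 108 and 154 TPM, against 55.4, 72.8 and 63.5 TPM, a log2 difference of 0.53 ± 0.21 (DESeq2, adjusted p = 0.0274). Same-numbered libraries of this pair deviated together, and without the block neither call held, at an adjusted p of 0.069 for MT2A and 0.229 for MT1X in DESeq2. The MT1X call was also lost without replicate 2, at an adjusted p of 0.107 in DESeq2, and without replicate 3, at 0.608. Of all genes tested in this pair 22.0% were called higher and 22.9% lower.

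OVCAR3 ResB gave the largest rise of MT2A among the 7 pairs. Its libraries held 241, 598 and 125 TPM of MT2A, all above the 21.4 to 43.1 TPM of OVCAR3, with a log2 difference of 3.0 ± 0.51 (DESeq2, adjusted p = 3.98e-07). MT1X was at 237, 239 and 100 TPM, also above every OVCAR3 library, with a log2 difference of 1.45 ± 0.45 (DESeq2, adjusted p = 0.0195). Background calls in this pair were few, 4.10% of genes higher and 3.57% lower. The mitochondrial rRNA shares were 5.97%, 8.88% and 1.12%, against 2.39%, 4.93% and 7.52% in OVCAR3. Both calls were kept with this share as a covariate in a fit of all 33 libraries, which called 4675 of 18028 genes in this pair. The cause of the rise was not tested. The MT1X call was lost without replicate 1 (adjusted p = 0.535 in DESeq2) or without replicate 2 (adjusted p = 0.691 in DESeq2), and edgeR called neither gene, at adjusted p = 0.0609 for MT2A and 0.183 for MT1X. Over all genes 1255 calls became 614 without replicate 1, 455 without replicate 2 and 656 with edgeR. Against OVCAR3 ResA, MT2A was higher in ResB by 2.01 ± 0.56 on the log2 scale (DESeq2, adjusted p = 0.00472), where 7.47% of genes were called higher and 6.04% lower. The libraries of the 2 lines overlapped there, and the call was lost without replicate 1 (adjusted p = 0.379 in DESeq2) or without replicate 2 (adjusted p = 0.573 in DESeq2). In these 2 fits the 2202 calls over all genes became 1011 and 791.

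In both OVCAR4 derivatives MT1A fell to near 0. The parental libraries held 20, 29.4 and 20.6 TPM, those of ResA 1.79, 0 and 0 TPM and those of ResB 1.47, 0.254 and 0 TPM. The ranges were far apart, and in each derivative the library with most MT1A was replicate 1. The log2 difference was -6.91 ± 1.18 in ResA (DESeq2, adjusted p = 3.47e-07) and -6.48 ± 1.03 in ResB (DESeq2, adjusted p = 1.47e-08). Calls over all genes were 6.68% higher and 5.22% lower in ResA, and 9.09% higher and 8.77% lower in ResB. MT1A fell in ResA also with size factors that vary with gene length, at -6.19, and with the mitochondrial share as a covariate, at -4.60, while edgeR, which called 219 of 14259 genes in this pair, gave -6.00 and did not call it, at adjusted p = 0.0866. With 2 of the 3 ResA libraries at 0 the size of the fold was unstable, between -9.89 without replicate 1 and -5.42 without replicate 2. In ResB it lay between -8.68 without replicate 1 and -5.49 without replicate 3.

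MT1F was at 443, 231 and 186 TPM in OVCAR4 ResB, above the 56.6, 61.5 and 53.7 TPM of OVCAR4, with a log2 difference of 1.57 ± 0.48 (DESeq2, adjusted p = 0.00989). Without replicate 3 the adjusted p was 0.0568 in DESeq2, and edgeR did not call MT1F, at adjusted p = 0.116. In ResA MT1F was at 179.6, 64.8 and 66.3 TPM, above the parental libraries too, but after the size factors the log2 difference was 0.10 ± 0.51 (DESeq2, adjusted p = 0.932). MT1F in ResB exceeded that in ResA in every library, by 1.47 ± 0.14 (DESeq2, adjusted p = 7.87e-25), with 16.2% of genes called higher and 16.5% lower. Same-numbered libraries of ResA and ResB deviated together, and MT2A and MT1X were likewise called higher in ResB, by 1.27 ± 0.10 (DESeq2, adjusted p = 3.93e-38) and 0.58 ± 0.14 (DESeq2, adjusted p = 0.000332). Without the block the adjusted p was 0.201 for MT1F, 0.433 for MT2A and 0.672 for MT1X in DESeq2. Without replicate 2 MT1X was not called, at an adjusted p of 0.118 in DESeq2.

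For MT2A, MT1E and MT1X the OVCAR4 pairs gave no call, and the direction depended on which libraries and which adjustment were used. MT2A stood at 143, 413 and 264 TPM in OVCAR4, 578, 151 and 156 in ResA and 1364, 416 and 392 in ResB. Replicate 1 was the highest library of each derivative and the lowest of the parent. The log2 difference was -0.78 ± 0.65 in ResA (DESeq2, adjusted p = 0.501) and 0.48 ± 0.66 in ResB (DESeq2, adjusted p = 0.693). Without replicate 1 both were called lower, at -1.95 (adjusted p = 5.36e-14 in DESeq2) and -0.68 (adjusted p = 0.0048 in DESeq2). In that fit MT1E was called lower too, at -1.40 in ResA and -1.29 in ResB, MT1X at -1.22 and -0.66, and MT1M in ResA at -6.45. Over all genes 6221 of 15254 were called in ResA and 7241 of 15714 in ResB without replicate 1. With all 3 replicates it was 1784 of 14993 and 2853 of 15968. With the mitochondrial rRNA share as a covariate in all 33 libraries both derivatives were called higher for MT2A instead, at 1.15 in ResA (adjusted p = 0.0111 in DESeq2) and 1.95 in ResB (adjusted p = 7.89e-07 in DESeq2), and likewise for MT1E, at 1.03 and 0.87. The fit with the covariate called 5556 of 18028 genes in ResA and 6569 of 18500 in ResB. The mitochondrial rRNA share was 5.18%, 14.8% and 12% in OVCAR4.

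PEA2 differed from PEA1 in which metallothioneins it expressed. MT1A was at 15.2, 18.3 and 12.6 TPM in PEA2 and at 0 in all 3 PEA1 libraries, at least 24-fold higher against 3 counts per PEA1 library (DESeq2, adjusted p = 7.3e-10). MT1E was at 487, 574 and 521 TPM, against 135, 333 and 139 TPM, with a log2 difference of 1.63 ± 0.31 (DESeq2, adjusted p = 1.19e-06). The MT1E call was lost with all 33 libraries in 1 fit, at 1.43 (DESeq2, adjusted p = 0.0616). MT1M went the other way, at 25.2, 26.3 and 23.8 TPM against 71.4, 151 and 68.8 TPM, and fell by 1.74 ± 0.35 on the log2 scale (DESeq2, adjusted p = 3.11e-06). The MT1M call was lost with all 33 libraries in 1 fit, at -1.95 (DESeq2, adjusted p = 0.0672), and with the mitochondrial rRNA share added to that fit, at -1.06 (DESeq2, adjusted p = 0.14). For MT1A, MT1E and MT1M no library of PEA1 overlapped those of PEA2, while 23.3% of genes were called higher and 23.8% lower. MT2A was called higher by 0.81 ± 0.30 (DESeq2, adjusted p = 0.0179), with overlapping libraries, and the call was lost without replicate 1 (adjusted p = 0.272 in DESeq2) or replicate 3 (adjusted p = 0.2 in DESeq2). MT1G was at least 3.79-fold higher (DESeq2, adjusted p = 0.022) on 8.211 to 17.002 counts per PEA2 library, and lost its call when any 1 of the 3 replicates was left out.

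In PEO4 MT1A and MT1M fell. MT1M was at 6.06, 6.59 and 8.18 TPM, against 69.6, 71.3 and 85.2 TPM in PEO1, a log2 difference of -3.41 ± 0.30 (DESeq2, adjusted p = 1.11e-28). MT1A was at 6.86, 8.62 and 14.8 TPM, against 57.9, 67.9 and 88 TPM, a log2 difference of -2.82 ± 0.32 (DESeq2, adjusted p = 1.63e-17). Both genes were lower in every library, they are adjacent members of the cluster with the pseudogene MT1JP between them, and their calls held under every alternative that gave a value. MT1E, on the other side of MT1M, was at 396, 444 and 615 TPM against 707, 603 and 599 TPM, with a log2 difference of -0.38 ± 0.22 (DESeq2, adjusted p = 0.186). Without replicate 3 MT1E was called lower, at -0.74 (DESeq2, adjusted p = 1.73e-07). The mitochondrial rRNA share of that PEO4 library was 5.59%, against 2.56% and 3.45% in its fellows. MT2A was called higher by 0.56 ± 0.19 (DESeq2, adjusted p = 0.014) and MT1X by 0.64 ± 0.27 (DESeq2, adjusted p = 0.0474). The MT2A call was lost without replicate 1 (adjusted p = 0.069 in DESeq2), and the MT1X call when any 1 replicate was left out (adjusted p between 0.0823 and 0.436 in DESeq2). With the mitochondrial share as a covariate the MT2A difference was 0.09 (DESeq2, adjusted p = 0.908). Background calls were 16.6% higher and 16.7% lower.

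PEO6 had less MT2A than PEO1, and MT1E was not called. MT2A was at 307, 248 and 765 TPM, against 1370.1, 1230.1 and 1890.1 TPM, with no overlap and a log2 difference of -1.92 ± 0.25 (DESeq2, adjusted p = 1.64e-13). MT1E was at 406, 523 and 747 TPM, against 707, 603 and 599 TPM, a log2 difference of -0.23 ± 0.24 (DESeq2, adjusted p = 0.455), while size factors that vary with gene length gave -0.66 (DESeq2, adjusted p = 0.0346). MT1A fell by 1.67 ± 0.31 (DESeq2, adjusted p = 7.89e-07) and MT1M by 1.27 ± 0.33 (DESeq2, adjusted p = 0.000471) on the log2 scale, both again below every PEO1 library, the MT1M call being lost without replicate 2 (adjusted p = 0.0833 in DESeq2). With all 33 libraries in 1 fit MT2A, MT1A and MT1M lost their calls, at adjusted p of 0.0685, 0.0916 and 0.365 in DESeq2. MT1F was higher by 1.37 ± 0.39 (DESeq2, adjusted p = 0.00203) and MT1G at least 19.2-fold (DESeq2, adjusted p = 0.0153). Replicate 3 held most of both, at 145 TPM of MT1F and 36.9 TPM of MT1G. Without it the MT1F difference was 0.70 (adjusted p = 0.226 in DESeq2), and MT1G was not called (adjusted p = 0.11 in DESeq2), as it was not without replicate 2 (adjusted p = 0.133 in DESeq2). Background calls were 21.2% higher and 20.3% lower.

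Set against PEO4, PEO6 had less MT2A by 2.48 ± 0.29 on the log2 scale (DESeq2, adjusted p = 5.02e-16), a call that held under every alternative. MT1M was higher in PEO6 by 2.14 ± 0.45 (DESeq2, adjusted p = 4.3e-05), MT1F by 1.59 ± 0.37 (DESeq2, adjusted p = 0.0003) and MT1G at least 16.8-fold (DESeq2, adjusted p = 5.16e-05). Without replicate 3 MT1G was not called, at an adjusted p of 0.0572 in DESeq2. No PEO4 library overlapped PEO6 for these 4 genes, and 9.86% of all genes were called higher and 8.33% lower. Over the 3 comparisons between resistant lines of a family, 15 of 24 combinations were tested and 8 called, 7 higher and 1 lower, where 21.4% of all gene combinations were called, 11.1% higher and 10.2% lower.

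MT1L, a transcribed pseudogene next to MT2A at chr16:56617461-56618818, was chosen after its values were seen. It was at 9.3, 3.47 and 20.4 TPM in PEO6, against 163, 195 and 196 TPM in PEO1, and fell by 4.31 ± 0.39 (DESeq2, adjusted p = 6.73e-27). It was at 546, 606 and 540.3 TPM in PEA2, against 74.2, 107 and 79.2 TPM in PEA1, a log2 difference of 2.82 ± 0.26 (DESeq2, adjusted p = 7.81e-27). In OVCAR4 ResB it was at 40, 32.5 and 30.4 TPM, against 0.893, 0 and 0 TPM in OVCAR4, a log2 difference of 6.70 ± 0.99 (DESeq2, adjusted p = 9.07e-10). The other 7 further metallothionein rows of the table, among them MT3 and MT1B, were called in 1 pair in all, MT3 being lower in PEO4.

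The ratio of the mean summed TPM was above 1 in 6 resistant lines and below 1 in PEO6. Its log2 ratio to the sensitive line, with no test, was 0.81 in OVCAR3 ResA, 2.17 in OVCAR3 ResB, 0.21 in OVCAR4 ResA, 1.24 in OVCAR4 ResB, 0.55 in PEA2, 0.26 in PEO4 and -0.90 in PEO6. Libraries of the 2 lines were apart only in OVCAR3 ResB, all above, and PEO6, all below. In the OVCAR4 pairs the TPM of genes in general was also shifted upward, with a median log2 difference of 0.44 in ResA and 0.48 in ResB over genes of at least 1 TPM, so the ResA ratio lay below that of the median gene. Without replicate 1 the ratio was -0.77 in OVCAR4 ResA and 0.33 in OVCAR4 ResB.

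Whether the 7 differences were the same was tested in a fit over all 33 libraries (DESeq2 likelihood ratio test). They differed for MT1A (adjusted p = 2.31e-14), MT2A (adjusted p = 0.00189) and MT1F (adjusted p = 0.00343), where 70.2% of all genes were called. They were not called for MT1E, MT1G, MT1M and MT1X, at adjusted p between 0.0697 and 0.687. With the counts of each line summed and lines as replicates, 7 resistant against 4 sensitive with the family as a term, DESeq2 called 0 members, and 68 of 23782 genes, 0.286%. Unadjusted p under 0.05 in this DESeq2 test was reached by MT1A, MT1G and MT1M, among 1424 genes in all. The MT1A estimate was -3.86 ± 1.38 (DESeq2, adjusted p = 0.378). Without the PEA family, in which MT1A rose, MT1A was the 1 member called, where 73 of 19210 genes were called. With all 11 lines kept, edgeR called 0 of 17110 genes, with 790 at an unadjusted p under 0.05.

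The regulators and transporters of zinc gave a mixed picture. MTF1, the metal-sensing factor, was called in none of the 7 pairs, with line means between 4.08 and 10.1 TPM, and its differences ran from -0.44 ± 0.25 in PEO6 to 0.72 ± 0.31 in OVCAR4 ResB. SLC30A1 was called higher in 3 pairs, by 1.05 ± 0.25 in PEA2 (DESeq2, adjusted p = 9.02e-05), 1.21 ± 0.23 in PEO4 (adjusted p = 1e-06) and 1.18 ± 0.30 in PEO6 (adjusted p = 0.000468). In PEO6 its direction was opposite to that of MT2A. SLC39A11, a member of the zinc importer family, was higher in 4 pairs, by 1.13 ± 0.33 in OVCAR4 ResB, 1.82 ± 0.23 in PEA2, 1.77 ± 0.18 in PEO4 and 2.18 ± 0.22 in PEO6. SLC39A14, which imports zinc and iron, was lower in 4, at -0.56 ± 0.11 in OVCAR3 ResA, -0.70 ± 0.23 in PEA2, -0.81 ± 0.18 in PEO4 and -1.11 ± 0.21 in PEO6. Of the 25 genes on this list, 39 of 135 tested combinations were called, 25 higher and 14 lower, a share near the 29.8% of all genes.

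Genes flanking the cluster on chromosome 16 were called in 29 of 63 tested combinations, 13 higher and 16 lower, where 29.8% of all genes were. In PEO4 8 of the 9 tested were lower, with a list median of -0.77, and in PEO6 6 of 9, with a median of -0.72, against 0.01 and 0.02 over all genes, of which 16.7% and 20.3% were called lower. BBS2, the flanking gene on the MT2A side, was lower in PEO4 by 0.77 ± 0.17 (DESeq2, adjusted p = 6.5e-05) and had a difference of -0.25 ± 0.23 in PEO6 (adjusted p = 0.419). NUP93, on the MT1X side, had a difference of 0.17 ± 0.21 in PEO4 (adjusted p = 0.594) and was lower in PEO6, at -0.92 ± 0.23 (adjusted p = 0.000436).

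Across the 11 lines the log2 line mean of MT2A followed the summed level at r = 0.988, MT1E at 0.864, MT1M at 0.789, MT1A at 0.52, MT1F at 0.326, MT1G at 0.3 and MT1X at -0.00455. Each member is part of that sum, and MT2A gave up to 77.6% of it, so these values are largely fixed by the make-up of the sum. Line means of the 21 pairs of members other than MT1H were related at r between -0.447 and 0.792, and their deviations within lines at r between 0.13 and 0.916 over 33 libraries. Among 11226 expressed genes the closest to the summed level outside the family were SLC25A32, at r = 0.965, MET at 0.944, FOXJ3 and RBMS1, both at 0.936, and ARHGAP21 at 0.935. With a replicate left out the r of these 5 genes lay between 0.796 and 0.942, so their order is not firm. MET, a receptor tyrosine kinase, ran from 4.58 TPM in OVCAR3 to 365 TPM in PEA2. Lines of a family share their origin, so the 11 points are not independent.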

How the data were processed

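Poly(A) RNA of 33 libraries, 11 lines with 3 replicates each, was sequenced and processed by the authors with DRAGEN BCL conversion and the nf-core/rnaseq pipeline on GRCh38. They deposited 2 gene tables from salmon: estimated counts, not normalized, and TPM, scaled to transcript length and to the library. The strand setting and annotation release were not given in the sources used here. The estimated counts were rounded to whole numbers. Salmon divides reads shared by near-identical copies by estimation. Of the 264 member values 167, or 63.3%, were whole, and 82 of these were 0.

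Lines were grouped by their labels, and sensitive or resistant by the study's text. The 7 pairs and the 3 comparisons between resistant lines were fitted with DESeq2 1.42.0 in R 4.3.3, with the replicate number as a block after the study's own design, over all genes, with Benjamini-Hochberg adjustment at 0.05. Differences among pairs used a likelihood ratio test, and lines as replicates used counts summed per line. A line with at most 3 counts in each library gives a bound, computed per library. Named were all 8 members, MTF1, SLC30A1, genes of a zinc list (SLC30 and SLC39) called the same way in at least 4 pairs, the flanking genes BBS2 and NUP93, and the 5 genes with the highest Pearson r to the summed level among genes of at least 10 TPM in a line. MT1L was added after its values were seen.

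Alternatives were no block, TMM size factors, a filter of 10 counts in 3 libraries, edgeR 4.0.16, limma 3.58.1 on log2(TPM + 1) and log2(TPM + 0.1) or with a mean of at least 1 TPM, all 33 libraries in 1 fit, and leaving out each replicate or family. Size factors that vary with gene length (lowess) and the mitochondrial rRNA share as a covariate were added after seeing the data. The tests were tested on simulated data. The members and lists were chosen with earlier results of these data known. Library totals were 18058985 to 43394009 counts. The labels do not say whether replicates were separate cultures, so p-values measure the spread between these libraries. Counts between replicates differed by more than sampling noise (chi-square per degree of freedom 30.6 or more). Same-numbered libraries deviated together, with each correlation above 0.1, only in OVCAR3 ResA with OVCAR3 (0.633, 0.219 and 0.423) and OVCAR4 ResB with OVCAR4 ResA (0.632, 0.445 and 0.49).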

Additional observations from a re-analysis of the deposited data

Results flagged for a closer look

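The differences between resistant and sensitive lines were unequal over the 7 pairs for 3 members of the 7 tested in the likelihood ratio test of DESeq2, which called 70.2% of all genes, so such a call is not particular to the members. MT1A, with an adjusted p of 2.31e-14, was called lower in 4 pairs and higher in PEA2. MT2A, with an adjusted p of 0.00189, was lower in PEO6 and higher in 4 other pairs. MT1F, with an adjusted p of 0.00343, was called higher in OVCAR4 ResB and PEO6, and in the other 5 pairs it was not called.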

How the results depend on the processing

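Of the 29 calls in the 10 comparisons, 4 were kept under every alternative that gave a value, those of MT1A in PEA2 and PEO4, of MT1M in PEO4 and of MT2A in PEO6 against PEO4. The other 25 were lost under at least 1. Over the 7 pairs 21 calls became 13 with edgeR, 9 with limma on log2(TPM + 1), 11 with limma on log2(TPM + 0.1) and 10 with all 33 libraries in 1 fit, and 15 to 23 when a replicate was left out. Over all genes edgeR called 656 in OVCAR3 ResB, 219 in OVCAR4 ResA and 1365 in OVCAR4 ResB, against 1255, 1784 and 2853 in DESeq2. In the other pairs it called between 6131 and 9165, against 5820 to 8146. All 33 libraries in 1 fit gave 4938 in OVCAR3 ResA and 4988 in PEO4, against 8146 and 5820. In the other pairs that fit called more. With a replicate left out between 292 and 7241 genes were called per pair, against 1255 to 8146. Limma on log2(TPM + 1) called 2 of 21860 genes in OVCAR3 ResB, 0 of 21098 in OVCAR4 ResA and 0 of 20822 in OVCAR4 ResB. Losses there are not particular to the members. In the other pairs it called between 3742 of 21179 genes in PEO4 and 7616 of 22049 in OVCAR3 ResA. Between resistant lines 8 calls became 4 with limma on log2(TPM + 1), 5 with limma on log2(TPM + 0.1), 5 with all 33 libraries in 1 fit, and 6 to 10 when a replicate was left out. Limma on log2(TPM + 1) called 6 of 21801 genes in OVCAR3 ResB against ResA, 273 of 21792 in PEO6 against PEO4 and 3326 of 21278 in OVCAR4 ResB against ResA. In the same order, all 33 libraries in 1 fit called 5042, 5013 and 2939 genes, against 2202, 3043 and 5218. With a replicate left out between 752 and 5223 genes were called. Without the replicate block the 8 calls became 5. The 3 lost were MT1F, MT1X and MT2A in OVCAR4 ResB against ResA, where same-numbered libraries pair. In that comparison 2094 of 16194 genes were called without the block, against 5218 of 15911 with it. Over the 7 pairs 17 calls were left without the block, those lost being MT1X and MT2A in OVCAR3 ResA, where numbers pair, and MT2A in PEA2 and PEO4, where pairing was not shown. Over all genes OVCAR3 ResA gave 5456 calls without the block against 8146 with it, PEA2 9174 against 8088 and PEO4 5872 against 5820. The likelihood ratio test called 3 members, 5 without the replicate block, 5 with the mitochondrial rRNA share, and 2 to 6 when a replicate was left out. Over all genes it called 13317 of 18973, 13409 of 19425 without the block and 15095 of 24192 with the share. With a replicate left out it called between 9405 of 17591 and 12742 of 18144. At the level of lines 0 calls became 1 without the PEA family, where 73 of 19210 genes were called. The log2 ratio of the sum when a replicate was left out ran from -0.77 to 0.77 in OVCAR4 ResA and from 0.33 to 1.76 in OVCAR4 ResB. Directions turned for MT2A in OVCAR4 ResB when a replicate was left out, from -0.68 without replicate 1 to 1.5 without replicate 2, and with the mitochondrial rRNA share, for MT2A in OVCAR4 ResA at 1.15 and for MT1E in OVCAR4 ResA at 1.03 and ResB at 0.87. Both the share and the length-dependent size factors were chosen after seeing the data, and the cause of these changes was not tested.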
